A study of Homo sapiens with 6 samples.

Results

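The genes described here are 10 genes of the NRF2 pathway and the aldo-keto reductase family, picked by name out of the 62703 genes listed for the PANC-1 RNA-seq data. They are the transcription factor gene NFE2L2, which encodes NRF2, its inhibitor KEAP1, the NRF2 target genes NQO1, HMOX1, GCLM, TXNRD1 and SLC7A11, and the aldo-keto reductase genes AKR1C1, AKR1C2 and AKR1C3. PANC-1 is a human cell line from a pancreatic ductal adenocarcinoma. RNA was sequenced from 3 samples of unedited cells (WT, DKK1-SE+/+) and 3 samples of gene-edited cells (DKK1-SE-KO, DKK1-SE-/-), which lack component enhancer e1 of a super-enhancer of DKK1 called DKK1-SE on both alleles after Cas9 cutting. Both groups were grown in the same medium with serum. The study obtained a single clone with both alleles deleted, so the 3 DKK1-SE-KO replicates are samples of 1 clone, and what is particular to the clone cannot be told apart from the deletion. The p-values measure only the spread between these samples, which may be technical. In bulk RNA fewer cells of a type and less RNA per cell cannot be told apart.

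NRF2 is a transcription factor that cells use against oxidants and electrophiles. In resting cells KEAP1 binds NRF2 and passes it to the CUL3 ubiquitin ligase for degradation, and when cysteines of KEAP1 are modified NRF2 accumulates, pairs with a small MAF protein and binds antioxidant response elements, which BACH1 can occupy in its place. Its targets make glutathione and NADPH, reduce thioredoxin and quinones, break down heme and, in many epithelial cells, include the AKR1C reductases.

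The total expected count ranged from 16475810 in WT replicate 2 to 21822314 in WT replicate 1. As a check of the labels, DKK1 was at 229, 246 and 199 TPM (a level scaled for gene length within each library) in WT replicates 1, 2 and 3 and at 66.8, 79.8 and 82.7 TPM in DKK1-SE-KO replicates 1, 2 and 3. The groups did not overlap, and DKK1 had a log2 fold change of -1.45 ± 0.11 (SE, DKK1-SE-KO over WT, n = 3 per group). The keratins KRT8 and KRT18 of ductal epithelium were abundant, with 1258 and 1035 TPM on average over the 6 samples. KRT19 and KRT7 averaged 113 and 15.3 TPM, while EPCAM and CDH1 were low, at 3.38 and 1.47 TPM. Of the 6 ductal epithelial markers 3 were higher (KRT8, KRT18 and KRT19) and 1 was lower (EPCAM) in DKK1-SE-KO. The summed level of the 6 was 1847, 1888 and 1925 TPM in WT and 3147, 3090 and 2662 TPM in DKK1-SE-KO, most of it from KRT8 and KRT18. Markers of acinar, endocrine, fibroblast and endothelial cells stayed at or below 0.72 TPM in every sample. Of 4 leukocyte markers only CD68, a lysosomal protein gene, passed the filter on low counts, with 43.2, 40.9 and 46.5 TPM in WT and 67.9, 64.8 and 67.1 TPM in DKK1-SE-KO, while PTPRC, which defines leukocytes, was at or below 0.04 TPM.

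The DKK1-SE-KO libraries differed from WT, and from each other, in a property that touches several of the values given here. Among tested genes, the median log2 difference from the WT mean was taken for the genes with at least 56.3% GC and for those with at most 41.8% GC (3792 each), and the first minus the second was -0.08, -0.06 and 0.14 in WT replicates 1, 2 and 3. It was 0.98, 0.64 and 0.20 in DKK1-SE-KO replicates 1, 2 and 3. GC-rich genes were thus higher relative to GC-poor genes in DKK1-SE-KO replicates 1 and 2, and replicate 3 lay nearer to WT. A fit with an offset for GC content was therefore set beside the one without it, and the part of GC content in a gene's difference was otherwise not tested.

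A gene was called at an adjusted p under 0.05 (edgeR quasi-likelihood test, Benjamini-Hochberg). Of 15179 tested genes, 39.3% were called, 19.8% higher (3013 genes) and 19.5% lower (2959 genes) in DKK1-SE-KO. With limma on log2(TPM + 1) the split was 1491 higher and 2670 lower. The median log2 fold change of all tested genes was -0.08 there, against 0.03 in the edgeR fit. Single genes moved either way: NQO1 was 0.75 on that scale against 0.72, and TXNRD1 was 0.47 against 0.57. Against this background 3 of the 7 members that passed the filter were called, 2 higher (NQO1 and TXNRD1) and 1 lower (NFE2L2). The share is close to that of all genes. The TPM levels of the groups did not overlap for 3 of the 7 tested members, and for 6711 of the 15179 tested genes. At an unadjusted p under 0.05 together with a log2 difference of 1.2 or more in either direction, limits that 8.66% of tested genes passed, 0 of the 7 members were called. The other 3 members, AKR1C1, AKR1C2 and AKR1C3, had too few counts to test.

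NFE2L2 (ENSG00000116044) lies on the minus strand of chr2:177218667-177392756 (hg38). Its level was 68.4, 73.5 and 72.8 TPM in WT replicates 1, 2 and 3 and 30.8, 39.5 and 63.1 TPM in DKK1-SE-KO replicates 1, 2 and 3. The WT samples lay close together, the DKK1-SE-KO samples were spread from less than the lowest WT level in replicate 3 down to replicate 1, and the groups did not overlap. The log2 fold change was -0.55 ± 0.17 (SE, edgeR quasi-likelihood test with Benjamini-Hochberg adjusted p = 0.0284). The call was not kept without WT replicate 2 (log2 fold change -0.53), WT replicate 3 (-0.55), DKK1-SE-KO replicate 1 (-0.39) or DKK1-SE-KO replicate 2 (-0.50), where the Benjamini-Hochberg adjusted p of the same edgeR quasi-likelihood test was 0.0829, 0.0644, 0.0597 and 0.0945. Over all genes these 4 fits called 4095 to 5278, against 5972 with all samples and 7558 without DKK1-SE-KO replicate 3. Without DKK1-SE-KO replicate 3 the log2 fold change was -0.82, and with the GC-content offset it was -0.28 with an edgeR Benjamini-Hochberg adjusted p of 0.0515, within a range of 0.000117 to 0.0945 over the alternatives. With the offset and replicate number as a block it was -0.29 and called.

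The annotated span of NFE2L2 overlaps HNRNPA3 on the opposite strand by 5293 bp, and HNRNPA3 averaged 284 TPM in WT and 182 TPM in DKK1-SE-KO. It also holds ENSG00000213963 on its own strand, at 2.88 TPM over all samples. Whether the counting used strand is not given in the sources used here, and NFE2L2 counts were not whole in 6 of 6 samples.

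KEAP1 (ENSG00000079999, chr19:10486125-10503558, minus strand) was at 50.5, 59.2 and 52.0 TPM in WT and at 52.6, 51.4 and 51.1 TPM in DKK1-SE-KO. Its 2 groups overlapped, and the log2 fold change was 0.09 ± 0.13 (SE). With the GC-content offset KEAP1 had a log2 fold change of -0.22 (edgeR quasi-likelihood, Benjamini-Hochberg adjusted p = 0.0414, against 0.635 without the offset, and 0.0414 to 0.957 over the alternatives), so its sign was not settled. With the offset and replicate number as a block it was -0.22 without a call. It was also negative without DKK1-SE-KO replicate 1 (-0.03).

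**Figure D1:**
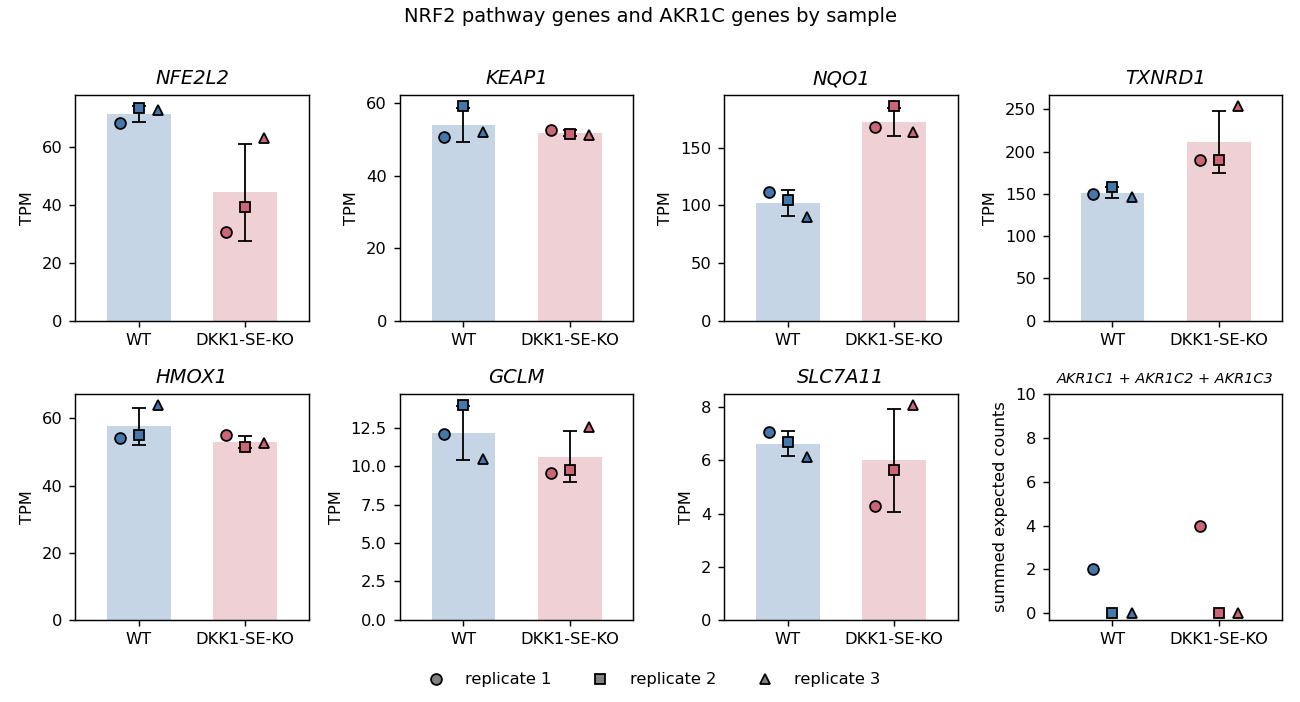
TPM of the 7 tested members and summed expected counts of AKR1C1, AKR1C2 and AKR1C3 (vertical axes) in each sample of WT and DKK1-SE-KO; symbols mark the replicate, bars the mean and error bars the SD (n = 3 per group; the AKR1C panel shows samples only). NQO1 and TXNRD1 are higher in all 3 DKK1-SE-KO samples, NFE2L2 is lower with DKK1-SE-KO replicate 3 at 63.1 TPM, and the AKR1C sum is 4 counts at most.

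The plot of the members by sample shows the 2 target genes that rose, and they act on different substrates. NQO1 (ENSG00000181019, chr16:69706996-69726668, minus strand) encodes the quinone reductase that uses NADPH or NADH and is among the most used readouts of NRF2. It was at 112, 105 and 90.1 TPM in WT and at 168, 186 and 164 TPM in DKK1-SE-KO. All 3 DKK1-SE-KO samples were above all 3 WT samples, by more than the spread within either group. The fold change was 1.64, or 0.72 ± 0.11 (SE) on the log2 scale (edgeR quasi-likelihood test, Benjamini-Hochberg adjusted p = 0.000755). TXNRD1 (ENSG00000198431, chr12:104215779-104350307, plus strand) encodes cytosolic thioredoxin reductase, which keeps thioredoxin reduced. Its level was 149, 159 and 146 TPM in WT and 189, 191 and 254 TPM in DKK1-SE-KO. Here too the groups did not overlap, and DKK1-SE-KO replicate 3 stood above the other 2. The fold change was 1.49, or 0.57 ± 0.11 (SE) on the log2 scale (edgeR quasi-likelihood test, Benjamini-Hochberg adjusted p = 0.00195). Both genes were called with each of the 6 samples left out and with the GC-content offset, where their log2 fold changes were 0.85 and 0.66. EID3, on the strand of TXNRD1 and inside its span, averaged 2.24 TPM in WT and 3.91 TPM in DKK1-SE-KO and was called higher too, with a log2 fold change of 0.92; it was named after its values were seen.

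Promoter windows from RefSeq (build GRCh38.p14, 250 bases before to 50 after a start) were matched for 8 of the 10 members, with 12 windows in all; HMOX1 and SLC7A11 had no entry. The core letters of the antioxidant response element, TGACNNNGC, were searched on both strands, and 13.3% of the 35116 windows in the table hold them. They were in 4 of the 12 windows, of TXNRD1 (both windows), GCLM and KEAP1, and not in the windows of NQO1, NFE2L2, AKR1C1, AKR1C2 or AKR1C3. The AP-1 letters TGANTCA, which can share bases with that element and are in 7.71% of all windows, were in 0 of the 12. The matches that end before the start are shown because they let the 2 TXNRD1 windows, from a gene that rose, be set beside GCLM and KEAP1, which were not called; each is printed on its gene's strand with the match in capitals.
TXNRD1, chr12:104215670-104215698, plus strand: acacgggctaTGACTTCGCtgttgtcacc
TXNRD1, chr12:104286920-104286948, plus strand: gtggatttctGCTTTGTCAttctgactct
GCLM, chr1:93909446-93909474, minus strand: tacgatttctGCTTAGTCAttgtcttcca
KEAP1, chr19:10502784-10502812, minus strand: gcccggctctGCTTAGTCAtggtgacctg
KEAP1, chr19:10502807-10502835, minus strand: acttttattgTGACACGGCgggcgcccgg
In 3 of these the element reads on the opposite strand, as GCTTTGTCA in TXNRD1 and as GCTTAGTCA in both GCLM and KEAP1. In GENCODE version 44 the first TXNRD1 stretch overlaps no TXNRD1 exon, while the others overlap an untranslated exon of at least 1 transcript of their gene. A further match in the first TXNRD1 window begins at position -8 and runs past the start. These are descriptions of the letters in the windows only, and sites farther from a start were not searched.

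HMOX1 (ENSG00000100292, chr22:35380361-35394214, plus strand), the inducible heme oxygenase, was at 54.1, 54.9 and 64.0 TPM in WT and at 54.9, 51.5 and 52.7 TPM in DKK1-SE-KO. Apart from WT replicate 3 the samples were alike, and the log2 fold change was 0.04 ± 0.12 (SE). Its sign was negative with the GC-content offset (-0.19) and without WT replicate 1 (-0.03) or DKK1-SE-KO replicate 1 (-0.04), each time without a call. GCLM (ENSG00000023909, chr1:93885199-93909456, minus strand), the modifier subunit of the enzyme that limits glutathione synthesis, was at 12.1, 14.0 and 10.5 TPM in WT and at 9.57, 9.78 and 12.5 TPM in DKK1-SE-KO. The groups overlapped because DKK1-SE-KO replicate 3 lay within the WT range, and the log2 fold change was -0.27 ± 0.15 (SE). Without DKK1-SE-KO replicate 3 it was -0.41 and called (edgeR quasi-likelihood, Benjamini-Hochberg adjusted p = 0.0226, of 0.0226 to 0.456 over the alternatives), and with the GC-content offset it was 0.21.

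SLC7A11 (ENSG00000151012, chr4:138164097-138242349, minus strand) encodes the cystine carrier of system xc-, which brings in the cysteine for glutathione, and is a target of ATF4 as well as of NRF2. It was at 7.06, 6.70 and 6.13 TPM in WT and at 4.28, 5.65 and 8.09 TPM in DKK1-SE-KO. The DKK1-SE-KO samples lay on both sides of WT, and the log2 fold change was -0.02 ± 0.16 (SE). With the GC-content offset it was 0.42 and called (edgeR quasi-likelihood, Benjamini-Hochberg adjusted p = 0.00118, against 0.941 without the offset and up to 0.998 over the alternatives), and without DKK1-SE-KO replicate 1 it was 0.12. The longest SLC7A11 transcript has 35.4% GC, and the 962 tested genes within 2 percentage points of it had a median log2 fold change of -0.44. The corresponding medians were -0.39 around GCLM (37.3% GC), -0.26 around NFE2L2 (40.5%), -0.09 around NQO1 (44.2%), -0.07 around TXNRD1 (44.6%), 0.24 around HMOX1 (58.5%) and 0.29 around KEAP1 (60.8%). NQO1, TXNRD1, SLC7A11 and GCLM thus lay above the median of genes of like GC content, and NFE2L2, KEAP1 and HMOX1 lay below it.

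**Figure D2:**
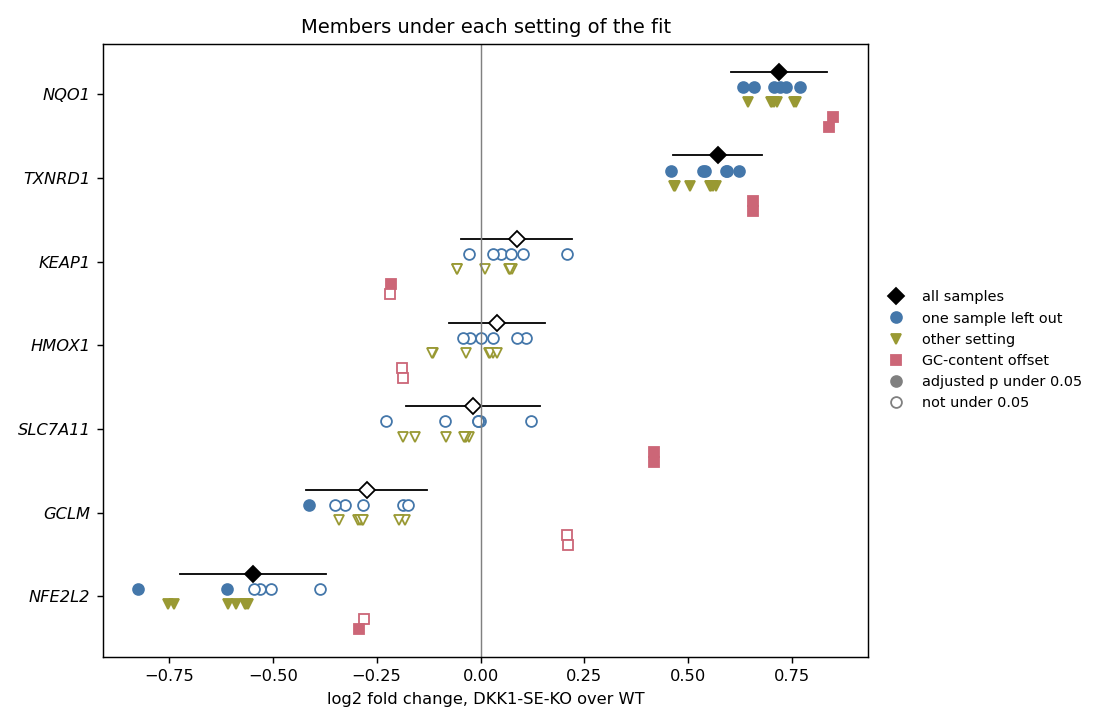
Log2 fold change of the 7 tested members (horizontal axis) under each setting of the fit, filled where the adjusted p was under 0.05; the line through each diamond is the standard error with all samples. The 2 squares of each gene are the GC-content offset alone (upper) and with replicate number as a block (lower). NQO1 and TXNRD1 are filled throughout, NFE2L2 lies between -0.82 and -0.28, and KEAP1, HMOX1, SLC7A11 and GCLM cross 0.

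The plot of members by setting sets the alternatives side by side: 2 of the 3 called members were called under each of them, and 4 members had a sign that depended on the setting. The plot by GC content shows that the 4 lie toward the 2 ends of the GC range.

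AKR1C1 (ENSG00000187134, chr10:4963253-4983283), AKR1C2 (ENSG00000151632, chr10:4987775-5018031) and AKR1C3 (ENSG00000196139, chr10:5035354-5107686) encode related reductases of ketosteroids, prostaglandins and lipid aldehydes, and how reads that fit more than 1 of them were counted is not given in the sources used here. AKR1C1 had 3 counts in DKK1-SE-KO replicate 1 and 0 in the other samples. For AKR1C2 the table gave 1 count in DKK1-SE-KO replicate 1 and 0 elsewhere, and for AKR1C3 it gave 2 counts in WT replicate 1 and 0 elsewhere. Summed over the 3 genes, this made 6 counts in 6 libraries, and 4 of the 6 samples had none. A count of 0 allows up to 3 counts, or 0.138 to 0.182 CPM (counts scaled to library size), for counting error only. The summed level was 0.19, 0 and 0 TPM in WT and 0.28, 0 and 0 TPM in DKK1-SE-KO, with a mean difference of 0.03 TPM (two-sided exact permutation test, p = 1; 3 against 3 samples cannot go below 0.1). No difference was detectable at this depth, and no fold change is given. AKR1C4, AKR1C8 and the pseudogene AKR1C6P of the same cluster had 0 counts in each sample.

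Within 5 Mb of the AKR1C cluster 30 genes were tested, with a median log2 fold change of -0.29, against -0.32 over the other 558 tested genes of chromosome 10 and 0.03 over all tested genes. None of the 30 was higher and 7 were lower, against 81 higher and 227 lower of the other 558. On the side of lower coordinates the nearest tested protein-coding genes were KLF6, PITRM1 and PFKP, with log2 fold changes of 0.22 ± 0.10, -0.07 ± 0.10 and -0.36 ± 0.11 (SE). On the other side they were NET1, ASB13 and TASOR2, with -0.26 ± 0.12, -0.08 ± 0.14 and -0.65 ± 0.16 (SE). Of the 6, PFKP and TASOR2 were called. In the edgeR quasi-likelihood test the Benjamini-Hochberg adjusted p of PFKP was 0.0201, against 0.0784 without WT replicate 2, 0.0802 without WT replicate 3 and 0.0571 without DKK1-SE-KO replicate 2. NET1 was called without DKK1-SE-KO replicate 3 at -0.31, and with the GC-content offset KLF6 and ASB13 were called at 0.22 and -0.34, PFKP was -0.60, NET1 was -0.06 and PITRM1 was -0.19. PITRM1 was -0.16 without DKK1-SE-KO replicate 1, and KLF6 was 0.01 on log2(TPM + 1). With replicate number as a block PFKP was not called, and with the offset and the block KLF6 was not called.

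The same window was placed around NFE2L2 after its values were seen. Of 41 tested genes there 28 were lower and 3 were higher, the HOX genes HOXD10, HOXD11 and HOXD13, named after their values were seen. Of the other 933 tested genes of chromosome 2, 413 were lower and 65 were higher. The median log2 fold change was -0.65, against -0.38 over those others. By library it was -0.69, -0.55 and -0.48 in DKK1-SE-KO replicates 1, 2 and 3 against the WT mean, and -0.02, 0.03 and -0.01 in WT. With the GC-content offset the window had -0.35 and the rest of the chromosome -0.30. NFE2L2, at -0.55, was near the median of its neighbours, and so was GCLM, at -0.27. Within 5 Mb of GCLM 43 tested genes had a median of -0.28, with 3 higher and 12 lower. The rest of chromosome 1 had 0.03, and with the GC-content offset the GCLM window had 0.01. Around SLC7A11 the median was -0.31 (-0.04 with the offset), against -0.18 over the rest of chromosome 4. Around KEAP1 and HMOX1 it was 0.21 and 0.21.

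The plot of neighbours shows lower values on both sides of NFE2L2 for most genes of its window, 28 of 41 being called lower. The 3 genes above the axis, HOXD13, HOXD10 and HOXD11, rose by 9.11, 8.01 and 7.47 (log2). The other 10 genes were not called, and the cause was not tested. Around NQO1 the median was 0.11 over 133 tested genes, with 23 higher and 6 lower, and -0.01 with the GC-content offset. The other 666 tested genes of chromosome 16 had 0.24, with 182 higher and 48 lower. Around TXNRD1 it was -0.15 over 55 tested genes, with 3 higher and 16 lower (0.02 over the other 724 tested genes of chromosome 12, with 130 higher and 124 lower), and -0.02 with the GC-content offset. Within 2 Mb it was -0.18 (-0.15 with the offset) and within 10 Mb it was -0.02.

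The rest of the pathway was read from 10 lists with 140 genes besides the members, of which 118 were tested, 37 rose and 31 fell. This is 57.6% called, beside 39.3% of all tested genes. The lists were chosen with earlier results of these data known, so this comparison cannot tell whether the pathway changed more than other genes. Of the 68 calls 46 were made with each of the 6 samples left out in turn, and so were 3522 of the 5972 calls over all tested genes. Of the genes named below after their values were seen, BACH1, CUL3 and PSAT1 kept their calls in this way, and the other called genes lost theirs without at least 1 of the samples. Among partners, competitors and degradation factors of NRF2, 5 of 11 rose (GSK3B, MAFF, MAFK, SQSTM1 and MAFG) and 4 fell (NFE2L3, BACH1, CUL3 and BTRC), with a median of 0.11. MAFG, BACH1, CUL3 and BTRC were named after their values were seen. CUL3 lies on chromosome 2 and BTRC on chromosome 10. Outside the windows of NFE2L2 and the AKR1C cluster, the tested genes of these chromosomes had medians of -0.38 and -0.32. The part of the chromosome in these differences was not tested. MAFG was not called with the GC-content offset (0.11), and neither MAFG nor BTRC was called with replicate number as a block. The small MAF gene MAFF was at 11.4, 13.7 and 15.3 TPM in WT and 34.3, 32.0 and 25.7 TPM in DKK1-SE-KO, without overlap, with a log2 fold change of 1.35 ± 0.17 (SE). MAFK rose by 0.73 ± 0.11 and SQSTM1, the autophagy receptor that binds KEAP1 and the most abundant gene of the list, by 0.58 ± 0.12 (SE, log2), and with the GC-content offset these were 0.40 and 0.32. GSK3B, a kinase that marks NRF2 for degradation without KEAP1, had 0.96 ± 0.12, or 1.46 on log2(TPM + 1), and the NRF2 relative NFE2L3 had -1.05 ± 0.11 (SE, log2). BACH1 was at 8.60, 10.5 and 9.06 TPM in WT and 2.75, 4.15 and 6.15 TPM in DKK1-SE-KO, without overlap, and like NFE2L2 it was lowest in DKK1-SE-KO replicate 1 and highest of the 3 in replicate 3. CUL3 showed the same order, with 26.4, 26.6 and 47.4 TPM against 51.2, 48.2 and 48.1 TPM in WT, and its log2 fold change of -0.53 was -0.05 with the GC-content offset, without a call. For BACH1 the log2 fold change of -0.85 was -0.51 with the offset, where it was called.

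Genes of glutathione synthesis, recycling and conjugation moved both ways, with 6 higher and 6 lower of 23 tested and a median of -0.08 that was -0.28 with the GC-content offset. GSR, which reduces oxidised glutathione, was at 42.7, 49.3 and 48.6 TPM in WT and 21.8, 17.3 and 21.0 TPM in DKK1-SE-KO, less than the lowest WT sample in all 3, with a log2 fold change of -1.06 ± 0.12 (SE). MGST1 fell by 1.84 ± 0.24 on the log2 scale, while GSS, the second enzyme of glutathione synthesis, had 0.78 ± 0.13 and the low-level GPX3 had 2.12 ± 0.23 (SE, log2), or 1.17 on log2(TPM + 1). GSTP1, the most abundant gene of the list, was not called at -0.13 ± 0.19 (SE), but had -0.47 with the GC-content offset and a call, and 0.05 without DKK1-SE-KO replicate 3.

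In the thioredoxin, peroxiredoxin and peroxide list 4 genes were higher (TXNIP, TXNRD3, TXN2 and TXNRD2) and 4 lower (SOD1, PRDX3, SOD2 and CAT) of 16 tested, with a median of 0.14. TXN2, TXNRD2, SOD2 and CAT were named after their values were seen. TXN2 and TXNRD2 were not called with the GC-content offset (0.21 and 0.09), nor SOD2 with the offset and the replicate block, nor TXNRD2 and CAT with the block alone. TXNRD3 had 0.69 ± 0.16 (SE, log2). SOD1, cytosolic superoxide dismutase, was at 393, 359 and 346 TPM in WT and 178, 225 and 202 TPM in DKK1-SE-KO, with -0.69 ± 0.12, and mitochondrial PRDX3 had -0.50 ± 0.12 (SE, log2). Like BTRC, PRDX3 lies on chromosome 10. TXNIP, which binds and inhibits thioredoxin, had 2.12 ± 0.46 (SE, log2) from levels at or under 0.92 TPM, and 0.60 on log2(TPM + 1). PRDX1, the most abundant, had 0.12 ± 0.10 (SE, log2) and no call, and was -0.05 on log2(TPM + 1) and on log2(TPM + 0.1).

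Of 10 genes of NADPH supply 3 rose, ME1 and TKT among them, and 3 fell (MTHFD2, IDH1 and PGD), the last 2 named after their values were seen. IDH1 was not called with the GC-content offset (-0.17), and neither IDH1 nor PGD was called with the replicate block. ME1 was at 11.68, 12.05 and 12.03 TPM in WT and 13.93, 15.48 and 22.03 TPM in DKK1-SE-KO, without overlap. Its log2 fold change was 0.66 ± 0.14, with 1.02 under the GC-content offset and no call on log2(TPM + 1), and mitochondrial MTHFD2 had -0.82 ± 0.10 (SE, log2). The most abundant gene, TKT, had 0.42 ± 0.12 (SE, log2), but its edgeR quasi-likelihood Benjamini-Hochberg adjusted p of 0.0207 became 0.0531 to 0.0954 when any sample other than DKK1-SE-KO replicate 3 was left out, and its log2 fold change was 0.15 with the GC-content offset. It was not called with replicate number as a block either.

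Heme and iron genes were higher where they were called, 4 of 10 tested (FTL, FTH1, ABCB6 and HMOX2), with 0 lower in edgeR and with the GC-content offset and a median of 0.33 that was 0.21 with the offset. The ferritin light chain FTL was at 1156, 1100 and 1101 TPM in WT and 1932, 2041 and 1622 TPM in DKK1-SE-KO, above all WT samples in all 3, with 0.92 ± 0.13 (SE, log2). The heavy chain FTH1 had 0.70 ± 0.13 and the porphyrin transporter ABCB6 had 0.79 ± 0.17 (SE, log2), the latter without a call on log2(TPM + 1). HMOX2, the constitutive heme oxygenase, had 0.45 ± 0.13 (SE, log2) and lost its call without any one of the 3 WT samples or DKK1-SE-KO replicate 2 (edgeR quasi-likelihood, Benjamini-Hochberg adjusted p of 0.0653 to 0.0865). It was not called with the GC-content offset (0.24), with the offset and the replicate block (0.23) or with limma on log2(TPM + 1) (0.28).

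Other quinone, carbonyl and xenobiotic enzymes and exporters had 2 higher and 7 lower of 16 tested, with a median of -0.28. The exporter ABCG2 was at 3.80, 3.93 and 4.50 TPM in WT and 22.9, 26.0 and 32.9 TPM in DKK1-SE-KO, far apart, with 2.93 ± 0.13 (SE, log2); EPHX1, named after its values were seen, was the other gene that rose, without a call under the GC-content offset (0.26). The exporters ABCC4 and ABCC3 had -0.99 ± 0.13 and -0.58 ± 0.10, and carbonyl reductase CBR1 had -0.76 ± 0.14 (SE, log2), or -1.14 on log2(TPM + 0.1). ABCC1, the most abundant, had -0.12 ± 0.11 (SE, log2) and was called at -0.30 with the GC-content offset, though not with the offset and replicate number as a block.

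Of 15 other aldo-keto reductase genes 14 were in the table and 5 were tested, with a median of 0.23 that was -0.07 with the GC-content offset. Of these 1 rose, AKR1B1, the aldose reductase. It was at 31.2, 23.3 and 27.9 TPM in WT and 43.8, 53.3 and 44.3 TPM in DKK1-SE-KO, without overlap, with a log2 fold change of 0.99 ± 0.15 (SE). AKR1A1, the most abundant of the family at 65.5 TPM on average, had 0.23 ± 0.14 (SE, log2) without a call, -0.01 with the GC-content offset, and 0.32 with a call without DKK1-SE-KO replicate 3.

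Of 9 tested genes often used as further NRF2 readouts 5 rose (OSGIN1, TRIM16, ABHD4, PANX2 and TRIM16L) and 1 fell (WNT11), with a median of 0.66; TRIM16L and WNT11 were named after their values were seen. The median was 0.37 on log2(TPM + 1), and WNT11 was not called with the replicate block. OSGIN1 was at 4.65, 4.57 and 7.44 TPM in WT and 13.8, 14.4 and 13.5 TPM in DKK1-SE-KO, without overlap, with 1.66 ± 0.19 (SE, log2). TRIM16, the most abundant, had 0.68 ± 0.11, ABHD4 had 0.76 ± 0.19 and PANX2 had 1.10 ± 0.27 (SE, log2). The last 2 are at low levels and lost their call with limma on log2(TPM + 0.1), and PANX2 was 0.69 with the GC-content offset. On log2(TPM + 1) ABHD4 was 0.37 without a call and PANX2 was 0.51 with a call.

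ATF4, which shares SLC7A11 as a target with NRF2, was at 302, 265 and 265 TPM in WT and 294, 337 and 270 TPM in DKK1-SE-KO, with overlap and no call (0.28 ± 0.13, SE, log2), though called without DKK1-SE-KO replicate 3 at 0.38, and 0.04 with the GC-content offset. In its list 6 of 11 genes rose and 3 fell, with a median of 0.79: ATF3 had 1.87 ± 0.13, SESN2 had 1.72 ± 0.13 and DDIT4 had 1.28 ± 0.11, while PHGDH, of serine synthesis, had -1.40 ± 0.13 (SE, log2). PSAT1 and VLDLR, named after their values were seen, were the other genes that fell, VLDLR without a call under the GC-content offset (-0.49).

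In the ferroptosis and lipid peroxide list 1 of 7 tested genes rose (GCH1, 0.93 ± 0.19, or 0.56 on log2(TPM + 1)) and 3 fell, ACSL4, FDFT1 and AIFM2 (SE, log2), with a median of -0.12 that was -0.29 with the GC-content offset. ACSL4, which loads membranes with oxidisable fatty acids, was at 43.5, 48.7 and 46.2 TPM in WT and 12.1, 20.5 and 24.4 TPM in DKK1-SE-KO, without overlap, with -1.21 ± 0.17 (SE, log2), or -0.76 with the GC-content offset. FDFT1 had -0.68 ± 0.11 (SE, log2). AIFM2, at -0.41 ± 0.14 (SE, log2), lost its call without any one of the WT samples (edgeR quasi-likelihood, Benjamini-Hochberg adjusted p of 0.0655 to 0.108) or with replicate number as a block and was -0.68 with the GC-content offset, where it was called, and SLC1A5, the most abundant, had 0.22 ± 0.13 (SE, log2) with a call only without DKK1-SE-KO replicate 3, at 0.31, and -0.08 with the GC-content offset.

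The plot of the lists shows called genes on both sides of 0 in 8 of the 10 lists, all but those of heme and iron handling and of the other aldo-keto reductases. Over the 10 lists 37 genes rose and 31 fell, and a shared change was not tested. Of the members, HMOX1 was not called under any alternative, SLC7A11 was called higher only with the GC-content offset, and GCLM was called lower only without DKK1-SE-KO replicate 3.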

How the data were processed

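Stranded mRNA libraries were prepared and sequenced at Majorbio; the submitters' processing notes name hg38, and the aligner, counter and annotation are not given in the sources used here. The authors deposited, for each gene in each sample, an expected count without normalisation, at times a fraction, and TPM, which the authors scaled for length within each library. Their own comparison in the same table (fold changes and p-values) was not used. Expected counts were rounded to whole numbers, filtered with filterByExpr (minimum count 10) and scaled by TMM, and 3 DKK1-SE-KO samples were compared with 3 WT samples with edgeR 4.0.16 (quasi-likelihood F test, R 4.3.3), with Benjamini-Hochberg adjustment over 15179 genes. Standard errors are the absolute log2 fold change divided by the square root of F. Positions and GC content of the longest transcript came from GENCODE version 44, in which 62625 of 62703 identifiers were found. Alternatives used DESeq2 1.42.0, limma 3.58.1, other scaling factors, no filter, a GC-content offset in 40 bins, and each sample left out. The fits were tested on simulated data. The neighbours were genes within 5 Mb. The floor was set at 3 counts, which is 0.138 to 0.182 CPM at total expected counts of 16475810 to 21822314. Named genes were the members, DKK1, in each list the most abundant tested gene and up to 4 called genes with the smallest adjusted p, and the 3 nearest genes on each side of the AKR1C cluster. Some genes are not reported. The members and lists were chosen with earlier results of these data known. Protein identity among the AKR1C members was not analysed here.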

Additional observations from a re-analysis of the deposited data

How the results depend on the processing

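NQO1 and TXNRD1 kept their direction and their call under all 15 alternatives that could alter them, with log2 fold changes of 0.63 to 0.85 and 0.46 to 0.66. The members called numbered 2 to 4, and none passed the fold limits in these 15. Genes past the fold limits numbered 1314, but 2490 without a filter, where more genes were tested, and 512 with limma on log2(TPM + 1), where a pseudocount shrinks low genes. On log2(TPM + 1) and log2(TPM + 0.1) the median of all genes shifted by -0.11 and -0.14. KEAP1 turned to -0.0557 and -0.0566 there, or 0.03 and 0.05 relative to that median, and HMOX1 to -0.12 and -0.12, or -0.03 and -0.01. HMOX1 was -0.0342 with library size alone, or 0.01 relative to the median of all genes there and 0.01 with all samples and TMM. With the GC-content offset KEAP1 was -0.22, HMOX1 -0.19, GCLM 0.21 and SLC7A11 0.42, and with the offset and the replicate block they were -0.22, -0.19, 0.21 and 0.42; the cause was not tested. With single samples left out KEAP1 ranged from -0.0283 to 0.21, HMOX1 from -0.042 to 0.11, SLC7A11 from -0.23 to 0.12, and the summed AKR1C level from -0.0633 to 0.0933 TPM in its difference, at a depth of 6 counts in all.

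The median around the AKR1C cluster was -0.22 within 2 Mb, -0.23 with the GC-content offset and -0.22 with the offset and the block. Around NFE2L2, a window added after seeing the data, the offset gave -0.35 without and -0.35 with the block. Replicate number as a block left 3 members called and moved the genes called from 5972 to 4981. Same-numbered samples did not deviate together (correlations of -0.12 to -0.07, against -0.05 to 0.15 for other pairs), so the numbers were not taken as pairs.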
